A study of Drosophila melanogaster with 18 samples.

Results

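The comparison described here asks whether the first step of blastoderm development in haploid fly embryos differed from the same step in diploid embryos. It used 12 of the 18 arrays of the series, 3 from each of 4 groups of staged Drosophila melanogaster embryos, and all 14560 probe sets that passed a filter on low intensity. The rule takes the log2 mean of haploid early cycle 15 minus haploid cycle 14, the haploid step, and subtracts diploid early cycle 14 minus diploid cycle 13, the diploid step. The result is called the step difference below, and a positive value means that a transcript gained more, or lost less, in the haploid embryos. The haploid embryos had parents labelled maternal haploid and histone H2-GFP, and were taken 15 minutes after the division that ends cycle 14 (early cycle 15) or cycle 13 (cycle 14). The diploid embryos had parents labelled w and histone H2-GFP, and were taken 15 minutes after the division that ends cycle 13 (early cycle 14) or cycle 12 (cycle 13). All groups thus carried the histone reporter, whose fluorescence served to time them from telophase. Each array held the total RNA of a pool of about 50 hand-picked embryos, so no value belongs to 1 embryo. The remaining arrays, 3 of late cycle 15 haploid and 3 of late cycle 14 diploid embryos at 40 minutes, entered the fit that estimates the spread and are used once, near the end.

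As background, the early fly embryo divides its nuclei in a shared cytoplasm on RNAs and proteins that the mother supplied. At the mid-blastula transition the maternal RNAs are degraded, the zygotic genome is transcribed at length, the divisions stop and the nuclei are enclosed in cells. The number of divisions follows the ratio of nuclei or DNA to cytoplasm. Haploid embryos, which hold a single set of chromosomes in each nucleus, pass through 1 more division before they form cells. Mothers mutant for maternal haploid lay eggs in which the paternal chromosomes are lost in the first division. Haploid cycle 14 and diploid cycle 13 are thus the last short cycles of their kind, and haploid early cycle 15 and diploid early cycle 14 are the starts of the long interphase in which cells form. Ploidy differs here together with the mother's genotype and with 1 cycle of developmental time, and these cannot be told apart.

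The arrays of a group resembled each other, with correlations of log2 intensity of 0.928 to 0.947 between replicates. All 8 blastoderm markers were above background on every array of the 4 groups, where background is an intensity of 31.9, taken as the 95th percentile over the 20 negative controls. No more than 2 of the markers of the mother's tissues were above background on every array of any group, and no more than 1 of each list for later nervous system, muscle and blood, or epidermis. No tested gene of these 4 lists had a called step difference. The neuronal marker elav averaged 166 ± 19.5 in haploid early cycle 15, 32.0 ± 5.55 in haploid cycle 14, 27.998 ± 6.58 in diploid early cycle 14 and 8.29 ± 1.82 in diploid cycle 13. The summed nervous system list was 209.8 to 258 in haploid early cycle 15, 100.4 to 140.5 in haploid cycle 14, 61.6 to 107 in diploid early cycle 14 and 69.9 to 82.4 in diploid cycle 13. The summed muscle and blood list was 109 to 130.0 in haploid early cycle 15, 157 to 164 in haploid cycle 14, 160.2 to 170.5 in diploid early cycle 14 and 209 to 260.4 in diploid cycle 13. The summed list of the mother's tissues was 244 to 477 in haploid early cycle 15 and 273 to 316 in haploid cycle 14. In diploids that sum was 228 to 337 in early cycle 14 and 159 to 237 in cycle 13. Whether cells of any of these tissues affected the results below was not tested. The ratio of the 3′ to the 5′ actin probe sets, a sign of RNA quality, was 1.80 to 1.91 in haploid early cycle 15, 1.75 to 1.97 in haploid cycle 14, 1.83 to 2.09 in diploid early cycle 14 and 1.89 to 2.00 in diploid cycle 13. The same ratio for GAPDH, from its newer control probe sets, was 9.22 to 11.6 in haploid early cycle 15 and 10.6 to 12.1 in haploid cycle 14. In diploids this ratio was at most 12.3 in early cycle 14 and 9.55 to 11.5 in cycle 13. The transcript of mh, the gene that gives the haploid line its name, averaged 10.6 ± 6.19 in haploid early cycle 15, 17.6 ± 17.3 in haploid cycle 14, 23.4 ± 6.71 in diploid early cycle 14 and 42.2 ± 4.61 in diploid cycle 13. It was above background on every array only in diploid cycle 13, so it is no firm check of the labels. The arrays were not on 1 scale as deposited. The upper quartile of deposited intensity was 96.4 to 121 on haploid early cycle 15 arrays, 85.7 to 118 on haploid cycle 14 arrays, 184 to 215 on diploid early cycle 14 arrays and 206 to 268 on diploid cycle 13 arrays. Values below are quantile-normalised intensities unless a scale is named, and ± is the SD over 3 arrays for an intensity and the standard error for a log2 difference.

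At an adjusted p below 0.05, 1304 of 14560 probe sets were called, 8.96% of those tested. Of these, 574 had a higher haploid step (3.94%) and 730 had a lower one (5.01%). Taking the brightest probe set of each gene, 1110 of 10035 genes were called (11.1%), 472 higher (4.7%) and 638 lower (6.36%). The higher and lower sets were not alike in size of change. The median step difference was 1.28 among the genes called higher and −0.61 among those called lower, against −0.10 over all tested genes. Of the higher genes 326 were above background on all 12 arrays (69.1%), against 597 of the lower genes (93.6%) and 48.1% of all tested genes. Among these higher and lower genes the medians were 1.06 and −0.60. The arrays measured pools of whole embryos, so fewer nuclei that express a gene and less RNA per nucleus cannot be told apart. Of the 505 probe sets that also passed a 2-fold change, 386 were higher and 119 lower.

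The split between the directions depended on how the arrays were brought to 1 scale. Without normalisation, as deposited, 647 probe sets were higher and 103 lower. With each array centred on its median, 620 were higher and 1039 lower. With centring on ribosomal protein transcripts 717 were higher and 166 lower, and with centring on the spiked poly-A controls 1249 were higher and 10 lower. The median step difference over all genes was −0.10 after quantile normalisation, 0.09 as deposited, 0.07 when centred on ribosomal transcripts, −0.20 when centred on the median and 0.54 when centred on the poly-A controls, so that the zero itself moved. The deposited scale and the 3 centrings differ from each other only by a constant per array, so that relative to the median gene they give the same values. Against these, all 472 higher and all 638 lower genes had the same direction as after quantile normalisation, which is a single comparison. Called in the same direction under every one of the 5 were 356 of 472 higher and 9 of 638 lower genes. Of the 4 other scalings 3 moved the median gene up and 1 moved it down, so these counts are no measure of which set is firmer. The step differences and calls given below are those after quantile normalisation, tested against 0 and not against the median gene. With the zero at the median of all probe sets, an alternative chosen after seeing the data, 646 probe sets were higher and 422 lower. Called genes whose own sign turned under a scaling are named where they appear, and such genes with no call are given in the last section.

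**Figure D1:**
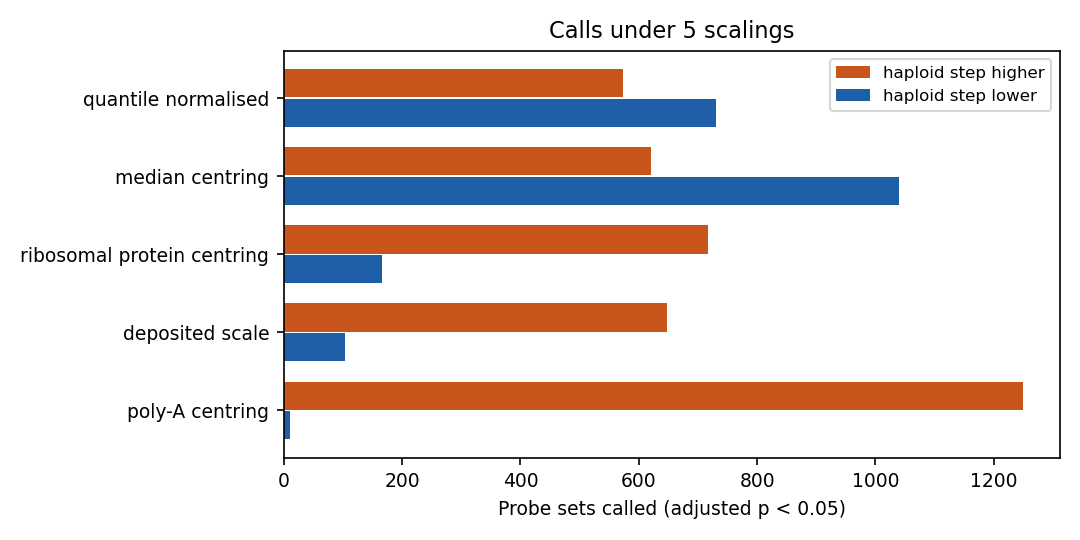
Number of probe sets called with a higher (orange) or lower (blue) haploid step at an adjusted p below 0.05, for 5 ways of scaling the arrays. Higher calls numbered 574 to 1249 and lower calls 10 to 1039 across the 5.

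**Figure D2:**
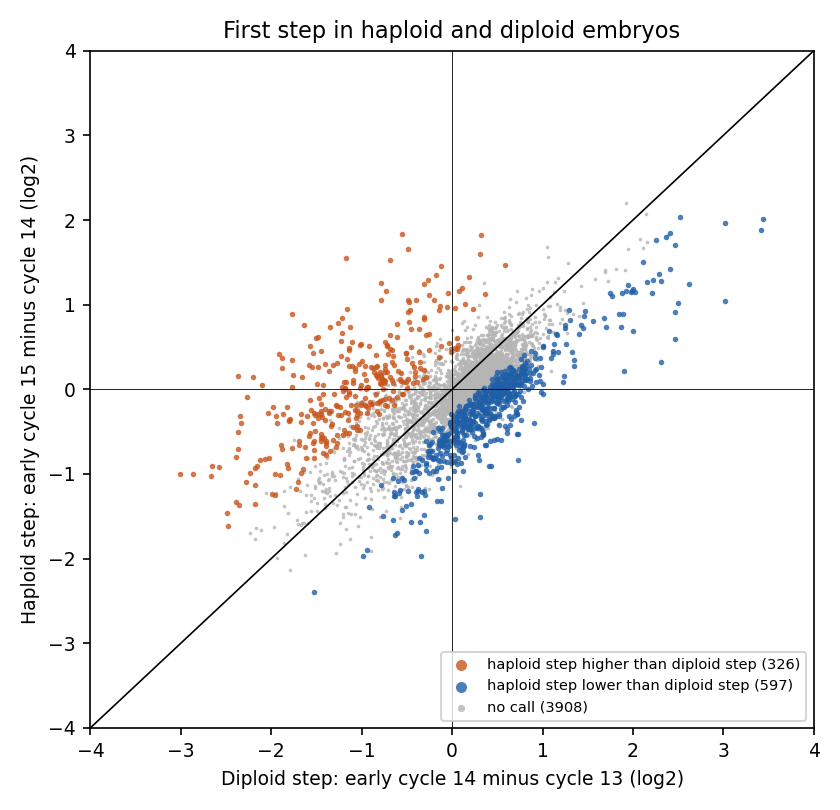
Haploid step (vertical) against diploid step (horizontal), both log2, for the 4831 genes above background on all 12 arrays; the diagonal marks equal steps. The 326 genes called higher (orange) lie mostly left of the vertical axis, where the diploid step is a fall, and the 597 called lower (blue) lie in a band below the diagonal.

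The 2 directions also differed in which step moved. Each step was tested in the same fit, which called 24.1% of genes for the haploid step (11.7% up, 12.4% down) and 32.9% for the diploid step (19.8% up, 13.2% down). Among the 472 higher genes, 223 fell in the diploid step with no call in the haploid step, 86 rose in the haploid step with no call in the diploid step, 78 fell in both, 66 rose in haploids and fell in diploids, and 6 rose in both. Among the 638 lower genes, 260 rose in the diploid step with no call in the haploid step, 206 fell in the haploid step with no call in the diploid step, 85 rose in both, 47 fell in both, and 27 fell in haploids and rose in diploids. In each direction 13 genes had neither step called.

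**Figure D3:**
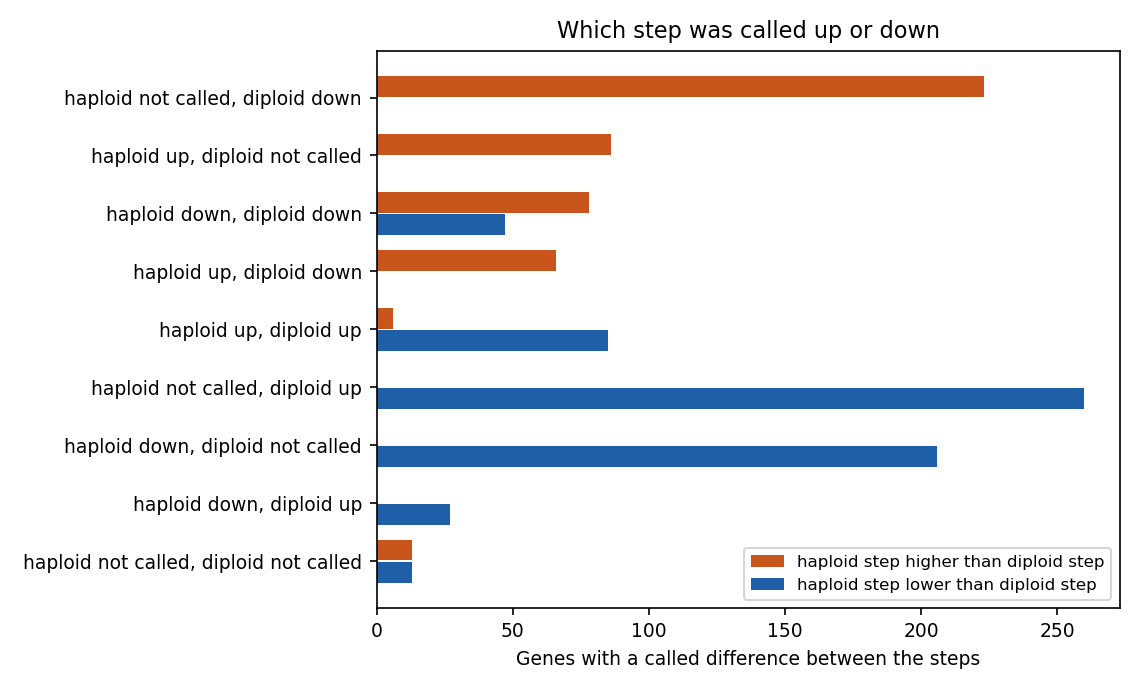
Number of genes with a called step difference by the call of each step, orange for a higher and blue for a lower haploid step. The longest bars are 260 lower genes that rose in diploids without a haploid call and 223 higher genes that fell in diploids without a haploid call.

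Gaps between the ploidies were called at both stages, for more of the called genes at the earlier stage than at the later one. At the earlier one, haploid cycle 14 embryos had less transcript than diploid cycle 13 embryos for 419 of the 472 higher genes (88.8%), where 18.2% of all genes were called lower in that comparison. They had more transcript for 464 of the 638 lower genes (72.7%), where 24.2% of all genes were called higher. At the later stage, haploid early cycle 15 against diploid early cycle 14, 237 of the higher genes were called (50.2%), 99 with more and 138 with less transcript in haploids, and 394 of the lower genes (61.8%), 199 with more and 195 with less, against 31.5% of all genes in either direction. Without regard to sign, the median log2 gap of the higher genes was 0.51 at the later and 1.45 at the earlier stage, and that of the lower genes was 0.40 and 0.67, against 0.43 and 0.55 over all genes. The earlier gap was the larger one for 85.6% of the higher and 70.2% of the lower genes, against 62.8% of all genes. These gaps are built from the same 12 arrays as the step difference, so the counts describe the called genes and are no separate test of them.

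Other genes fell in diploids with no call in haploids. Among those above background on all 12 arrays, with haploid and diploid array steps that did not overlap, CG8668, msps and dmt had the largest step differences. The gene msps encodes a microtubule polymerase of the XMAP215 type. Its intensity was 151, 174 and 183 in haploid early cycle 15, 159.6, 139.6 and 159.6 in haploid cycle 14, 171, 154 and 129 in diploid early cycle 14 and 691, 709 and 686 in diploid cycle 13. The 3 diploid cycle 13 arrays stood above the other 9, which overlapped one another. The haploid step was 0.14 ± 0.11, the diploid step −2.21 ± 0.11 and the step difference 2.35 ± 0.16 (limma adjusted p = 1.2e-09). The transcript of CG8668 had the same shape, averaging 84.5 ± 10.3 in haploid early cycle 15 and 75.4 ± 5.53 in haploid cycle 14, against 91.2 ± 11.6 in diploid early cycle 14 and 479.9 ± 120.4 in diploid cycle 13. Its step difference was 2.53 ± 0.24 (limma adjusted p = 1.5e-07). For dmt, which encodes Dalmatian, a protein of sister chromatid cohesion, the step difference was 2.32 ± 0.25. For spdi the step difference was 2.15 ± 0.18, and its diploid cycle 13 arrays, at 757, 649.7 and 708, were again the high ones.

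Transcripts known from oogenesis and the germ line were among these. The gene ovo encodes a germline transcription factor. Its intensity was 109, 136 and 111 in haploid early cycle 15, 128, 104 and 148 in haploid cycle 14, 239, 304 and 239 in diploid early cycle 14 and 1382, 1131 and 1254 in diploid cycle 13. Both haploid groups overlapped and lay below both diploid groups, and the diploid cycle 13 arrays were far above the rest. The step difference was 2.19 ± 0.23 (limma adjusted p = 7.9e-07), with a diploid step of −2.27 ± 0.17 and a haploid step of −0.09 ± 0.17. BicC, an RNA-binding translational regulator supplied by the mother, had 142, 123 and 138 in haploid early cycle 15, 109, 125 and 105 in haploid cycle 14, 145, 203 and 200.2 in diploid early cycle 14 and 644, 691 and 656 in diploid cycle 13. Only its diploid cycle 13 arrays were high, and the step difference was 2.13 ± 0.24 (limma adjusted p = 1.8e-06). The maternal alpha-tubulin alphaTub67C averaged 123 ± 26.3 and 151 ± 5.69 in haploid early cycle 15 and cycle 14, against 193 ± 15.8 and 774 ± 249 in diploid early cycle 14 and cycle 13, with a step difference of 1.63 ± 0.29.

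Of the higher genes, 78 fell in both ploidies, which with a positive step difference means less in haploids. Among them Rab23, a small GTPase, had 49.1, 103 and 91.2 in haploid early cycle 15, 167, 155 and 143 in haploid cycle 14, 109.7, 107 and 94.4 in diploid early cycle 14 and 864, 728 and 918 in diploid cycle 13. Within each ploidy the later arrays were all below the earlier ones, and diploid cycle 13 was the highest group by a wide margin. The haploid step was −1.0, the diploid step −3.01 and the step difference 2.01 ± 0.26 (limma adjusted p = 1.4e-05). Jabba, which anchors histones to lipid droplets, had steps of −0.40 in haploids and −2.33 in diploids and a step difference of 1.94 ± 0.18, a sign shown by 1 of its 2 probe sets. For rdx, an adaptor that brings the Hedgehog pathway factor Ci to a ubiquitin ligase, they were −0.50, −2.37 and 1.87 ± 0.15. The translational repressor brat, a regulator of maternal RNAs, averaged 204 ± 20.8 and 371 ± 134 in haploid early cycle 15 and cycle 14, against 382 ± 103 and 1968 ± 164 in diploid early cycle 14 and cycle 13, and its step difference was 1.59 ± 0.25 (limma adjusted p = 0.00011).

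A further 66 genes rose in haploids and fell in diploids. The largest step difference among the genes above background belonged to Pino, at 2.72 ± 0.20 (limma adjusted p = 2.9e-09). Its intensity was 597, 474 and 582 in haploid early cycle 15 and 175, 202 and 186 in haploid cycle 14, against 158, 156 and 150.1 in diploid early cycle 14 and 349, 267 and 459.6 in diploid cycle 13. The 4 groups did not overlap, with haploid early cycle 15 highest and diploid early cycle 14 lowest. The gene l(3)73Ah encodes a RING finger protein of the Polycomb type, and it had 176, 181 and 205.3 in haploid early cycle 15, 97.4, 103 and 101 in haploid cycle 14, 101, 90.4 and 102 in diploid early cycle 14 and 318, 299 and 389 in diploid cycle 13. Haploid cycle 14 and diploid early cycle 14 overlapped, and the other groups were above them. The step difference was 2.66 ± 0.17 (limma adjusted p = 4.9e-10), and that of pcs, which encodes an exchange factor for Rab11, was 2.40 ± 0.18.

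Among them was pbl, a gene needed for cytokinesis. It had 763, 731 and 750.0 in haploid early cycle 15, 249, 214 and 248 in haploid cycle 14, 399, 359.8 and 350.0 in diploid early cycle 14 and 503, 486 and 559.9 in diploid cycle 13. The 4 groups did not overlap, and haploids held both the lowest and the highest level. The haploid step was 1.66 ± 0.08, the diploid step −0.48 ± 0.08 and the step difference 2.14 ± 0.12 (limma adjusted p = 7.9e-11). Slbp, which binds the stem-loop of histone mRNAs, had 556, 506 and 479 in haploid early cycle 15, 307, 303 and 314 in haploid cycle 14, 406, 384 and 384 in diploid early cycle 14 and 1082, 778 and 1173 in diploid cycle 13. Again no groups overlapped, but here diploid cycle 13 was highest, and the step difference was 2.08 ± 0.16 (limma adjusted p = 3.2e-09). The other named genes with opposite steps were dmpd at 2.39 ± 0.21, CG11593 at 2.25 ± 0.15, the kinesin Khc-73 at 2.21 ± 0.27 and mthl1, which encodes the receptor for the gastrulation signal Fog, at 1.90 ± 0.18.

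A rise in haploids with no call in diploids was led, under the same conditions on background and overlap, by Tmep, CG17078 and CG11699. Tmep had 245, 262 and 262 in haploid early cycle 15, against 101, 90.4 and 88.5 in haploid cycle 14, 116, 119 and 114 in diploid early cycle 14 and 124, 115 and 145 in diploid cycle 13. Its haploid early cycle 15 arrays were alone in being high, and the step difference was 1.59 ± 0.15 (limma adjusted p = 1.5e-07). The values for CG17078 and CG11699 were 1.56 ± 0.23 and 1.55 ± 0.29. Caf1-105, a subunit of the chromatin assembly factor that deposits histones on new DNA, had 251, 287 and 262 in haploid early cycle 15, 73.4, 78.1 and 73.6 in haploid cycle 14, 222, 171 and 186 in diploid early cycle 14 and 155, 129.8 and 179 in diploid cycle 13. Haploid cycle 14 was the low group and the 2 diploid groups overlapped, giving a step difference of 1.503 ± 0.18 (limma adjusted p = 3.1e-06).

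The 3 lower genes above background with the most negative step differences, CG4702, Ac78C and phyl, rose in diploids and were higher in haploid cycle 14 than in diploid cycle 13. CG4702 had 574, 599 and 579 in haploid early cycle 15, 441, 603 and 385 in haploid cycle 14, 378, 322 and 481 in diploid early cycle 14 and 72.0, 95.6 and 69.5 in diploid cycle 13. Only the diploid cycle 13 arrays were low. The haploid step was 0.32 ± 0.15, the diploid step 2.31 ± 0.15 and the step difference −1.99 ± 0.21 (limma adjusted p = 8.5e-07). The adenylyl cyclase gene Ac78C had 1076, 908 and 1045 in haploid early cycle 15, 545, 526 and 405 in haploid cycle 14, 604, 459 and 579 in diploid early cycle 14 and 51.2, 93.7 and 62.9 in diploid cycle 13. Haploid cycle 14 overlapped diploid early cycle 14, diploid cycle 13 was far below both, and the step difference was −1.97 ± 0.21 (limma adjusted p = 8.5e-07). The adaptor phyl, which targets the repressor Tramtrack for degradation, rose in both, by 0.59 in haploids and 2.46 in diploids, with a step difference of −1.87 ± 0.16 (limma adjusted p = 2e-08).

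Dtg, named as a target of the BMP ligand Dpp, followed the same order. Its intensity was 1586, 1692 and 1544 in haploid early cycle 15, 889, 805 and 693 in haploid cycle 14, 587, 488 and 586 in diploid early cycle 14 and 95.6, 86.3 and 112 in diploid cycle 13. The groups did not overlap, and haploid cycle 14 was above diploid early cycle 14. Its step difference was −1.48 ± 0.15 (limma adjusted p = 2.3e-07). Values of the other genes were −1.69 ± 0.26 for CG8066, −1.56 ± 0.16 for CG43085, −1.54 ± 0.12 for link and −1.30 ± 0.40 for CG33272.

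Falls in haploids with no call in diploids were led, under the same conditions on background and overlap, by CG7460, CG13716 and CG12991. CG13716 had 312, 408 and 405 in haploid early cycle 15, 1514, 1385 and 1485 in haploid cycle 14, 330.2, 427 and 473 in diploid early cycle 14 and 437, 540.1 and 581 in diploid cycle 13. The 3 haploid cycle 14 arrays stood apart from the other 9, which overlapped. The haploid step was −1.97 ± 0.16 and the step difference −1.63 ± 0.23 (limma adjusted p = 2.9e-05), with a call under all 5 scalings. The step differences of CG7460, CG12991 and CG42598 were −1.83 ± 0.49, −1.57 ± 0.41 and −1.54 ± 0.33 and rested on dimmer probe sets, the haploid early cycle 15 means being 46.5, 54.3 and 54.9.

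Transcripts that fell in both ploidies, but more in haploids, included the mitochondrial glutamate carrier GC1. It had 502, 656 and 481 in haploid early cycle 15, 1587, 1493 and 1742 in haploid cycle 14, 1906, 1759.8 and 1661 in diploid early cycle 14 and 2227, 2246 and 2330.2 in diploid cycle 13. The haploid early cycle 15 arrays were far below the others, while haploid cycle 14 and diploid early cycle 14 overlapped. Its step difference of −1.21 ± 0.14 (limma adjusted p = 1.5e-06) was called under all 5 scalings. Cds, which makes CDP-diacylglycerol for phospholipid synthesis, had a haploid step of −1.72, a diploid step of −0.64 and a step difference of −1.09 ± 0.19. A fall in haploids beside a rise in diploids was seen for the laccase gene stw (−1.57 ± 0.35), the autophagy gene Atg18b (−1.13 ± 0.22) and the Rap exchange factor C3G (−1.07 ± 0.23). Neither step was called alone for CG4679 (0.85 ± 0.26) and CG8142 (0.68 ± 0.22), which were higher, or for CG17996 (−0.94 ± 0.28), CG12084 (−0.69 ± 0.19) and Fbw5 (−0.49 ± 0.15), which were lower. The sign of Fbw5 turned with poly-A centring.

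**Figure D4:**
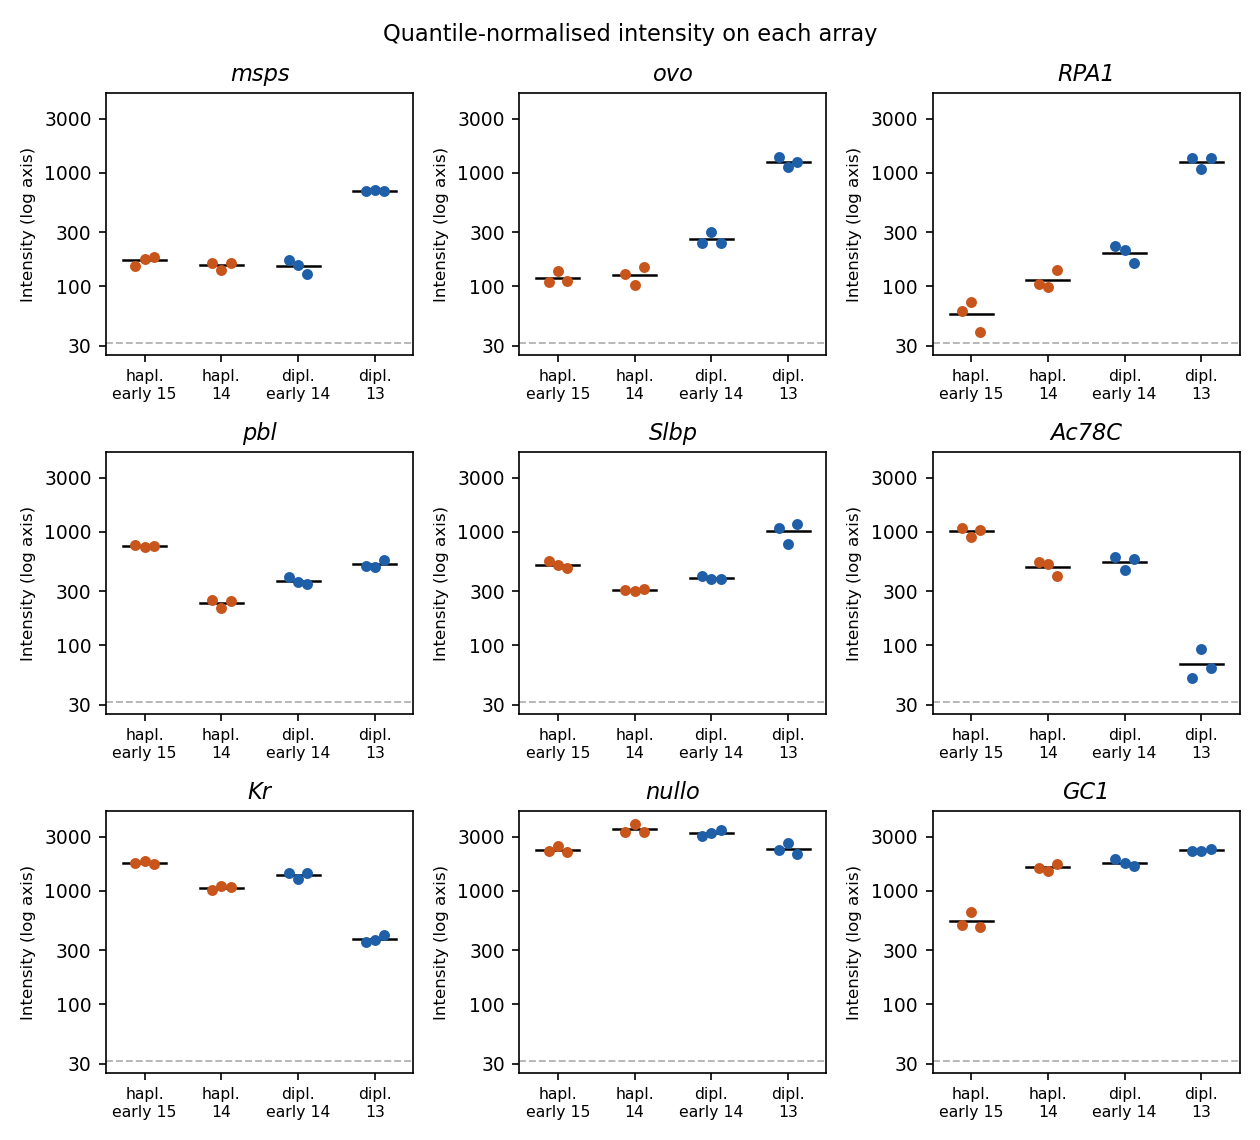
Quantile-normalised intensity on a log axis for 9 genes; each point is 1 array, orange for haploid and blue for diploid groups, the bar is the mean of 3 arrays and the dashed line is background (31.9). In msps, ovo, RPA1 and Slbp diploid cycle 13 is highest, in pbl haploid early cycle 15 is highest, in Ac78C and Kr diploid cycle 13 is lowest, and nullo and GC1 have a haploid fall.

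Gap genes divide the embryo into broad regions, and terminal genes mark its ends. Of 18 listed, 17 were measured, 6 were called lower (35.3%, against 6.36% of all genes) and none higher at an adjusted p below 0.05. The list median was −0.49, or −0.39 relative to all genes, and 15 of the 17 rose in each step, where 11.7% of all genes rose in the haploid and 19.8% in the diploid step. Krüppel, listed as Kr and a gap repressor, had 1766, 1827 and 1728 in haploid early cycle 15, 1018, 1100.4 and 1074 in haploid cycle 14, 1429, 1261 and 1451 in diploid early cycle 14 and 358, 369 and 409 in diploid cycle 13. The groups did not overlap, and haploid cycle 14 was well above diploid cycle 13. Kr had a step difference of −1.13 ± 0.10 (limma adjusted p = 6e-08).

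The gap gene kni (−0.93 ± 0.17), the terminal genes hkb (−0.82 ± 0.16) and tll (−0.51 ± 0.16) and the Sox genes D (−0.88 ± 0.14) and SoxN were also lower, SoxN with all 3 diploid cycle 13 arrays below background. The signs of kni, hkb and tll turned with poly-A centring. For hkb, tll and D, haploid early cycle 15 overlapped diploid early cycle 14. For hkb, these groups had 966, 851 and 1124 in haploids, against 915, 992 and 1113 in diploids. The gap gene hb, which is also supplied by the mother, was not called, at −0.12 (95% interval −0.51 to 0.26). The count of lower calls on this list was 8 when arrays were centred on the median, 3 when centred on ribosomal transcripts, 1 as deposited and none with poly-A centring, where 1 gene was higher.

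Of 6 pair-rule genes measured, only hry, the repressor hairy, was called, where 11.1% of all genes were called in either direction. It had 1419, 909 and 1292 in haploid early cycle 15, 513, 442 and 471 in haploid cycle 14, 1104, 945 and 1047 in diploid early cycle 14 and 978, 808 and 934 in diploid cycle 13. Haploid cycle 14 was the low group and the rest overlapped. The step difference was 1.13 ± 0.17 (limma adjusted p = 7.4e-05), opposite in sign to that of Kr, and it was called under all 5 scalings. The list median relative to all genes changed sign, at −0.10 after quantile normalisation and 0.20 with scaling by a constant.

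The genes of dorsal and ventral fate were mixed: of 13 measured, 4 were lower (30.8%, against 6.36% of all genes) and 2 higher (15.4%, against 4.7%). The list median was −0.05 relative to all genes. The protease tld, which frees BMP ligands, had 858, 923 and 908 in haploid early cycle 15, 556, 602 and 509.8 in haploid cycle 14, 458, 434 and 451 in diploid early cycle 14 and 95.7, 127 and 115 in diploid cycle 13. The groups did not overlap, each haploid stage was above the matching diploid stage, and the step difference was −1.31 ± 0.15 (limma adjusted p = 1.7e-06). The homeobox gene zen, needed for amnioserosa, had a step difference of −0.88 ± 0.12. The BMP ligand scw fell by 0.28 on the log2 scale in haploids and rose by 0.42 in diploids, a step difference of −0.70 ± 0.12 (limma adjusted p = 0.00046). The 2 higher members, htl and ths, had groups below background.

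In amnioserosa and yolk, Doc1 (−1.01 ± 0.15) and zen2 (−0.71 ± 0.16), transcription factors of the amnioserosa and dorsal ectoderm, were lower, and the GATA factor srp was higher, among 11 measured. Thus 18.2% of this list were lower and 9.09% higher, against 6.36% and 4.7% of all genes. For srp the values were 263, 230.2 and 305 in haploid early cycle 15, 46.3, 45.4 and 44.8 in haploid cycle 14, 73.6, 73.5 and 63.7 in diploid early cycle 14 and 30.6, 35.6 and 22.2 in diploid cycle 13. It rose in both, the haploid early cycle 15 arrays were highest, and 2 of the diploid cycle 13 arrays were below background. Its step difference was 1.26 ± 0.23.

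Early zygotic genes are transcribed in short bursts around the last divisions. Of 22 measured, 13 were lower (59.1%, against 6.36% of all genes) and none higher, and the list median was −0.43 relative to all genes, or −0.45 with scaling by a constant. Above background on all 12 arrays were 19 of the 22, and of all 4831 such genes 597 were called lower. At the earlier stage 19 of the 22 were higher in haploid cycle 14 than in diploid cycle 13, as were 24.2% of all genes. CG14915 had 4605, 4807 and 4553 in haploid early cycle 15, 2728, 2909 and 1981 in haploid cycle 14, 3664, 3414 and 3946 in diploid early cycle 14 and 967, 1024 and 982 in diploid cycle 13. Haploid cycle 14 lay between the 2 diploid groups, and the step difference was −0.99 ± 0.13 (limma adjusted p = 1e-05). The BTB transcription factor gene rib rose by 2.01 in haploids and 3.44 in diploids (−1.43 ± 0.17), and CG16815 had a step difference of −0.86 ± 0.15.

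Z600, an inhibitor of mitosis also called frühstart, had 5182, 4847 and 4920.1 in haploid early cycle 15, 2067, 1679 and 1545 in haploid cycle 14, 4367, 4517 and 4302 in diploid early cycle 14 and 877, 1122 and 1060.1 in diploid cycle 13. Haploids were above diploids at the earlier stage, and the step difference was −0.61 ± 0.13 (limma adjusted p = 0.003), with a sign that turned under poly-A centring. The proneural gene amos fell in both ploidies, by 1.70 in haploids and 0.61 in diploids on the log2 scale, and had a step difference of −1.09 ± 0.19. Tribbles, listed as trbl and known to block mitosis by removing String, was not called, at −0.29 (95% interval −0.65 to 0.07). The number of lower calls on the early zygotic list was 15 with median centring, 4 on the deposited scale, 5 with ribosomal centring, 1 with poly-A centring and 7 without a trend in the variance. With poly-A centring 1 gene of the list was called higher.

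**Figure D5:**
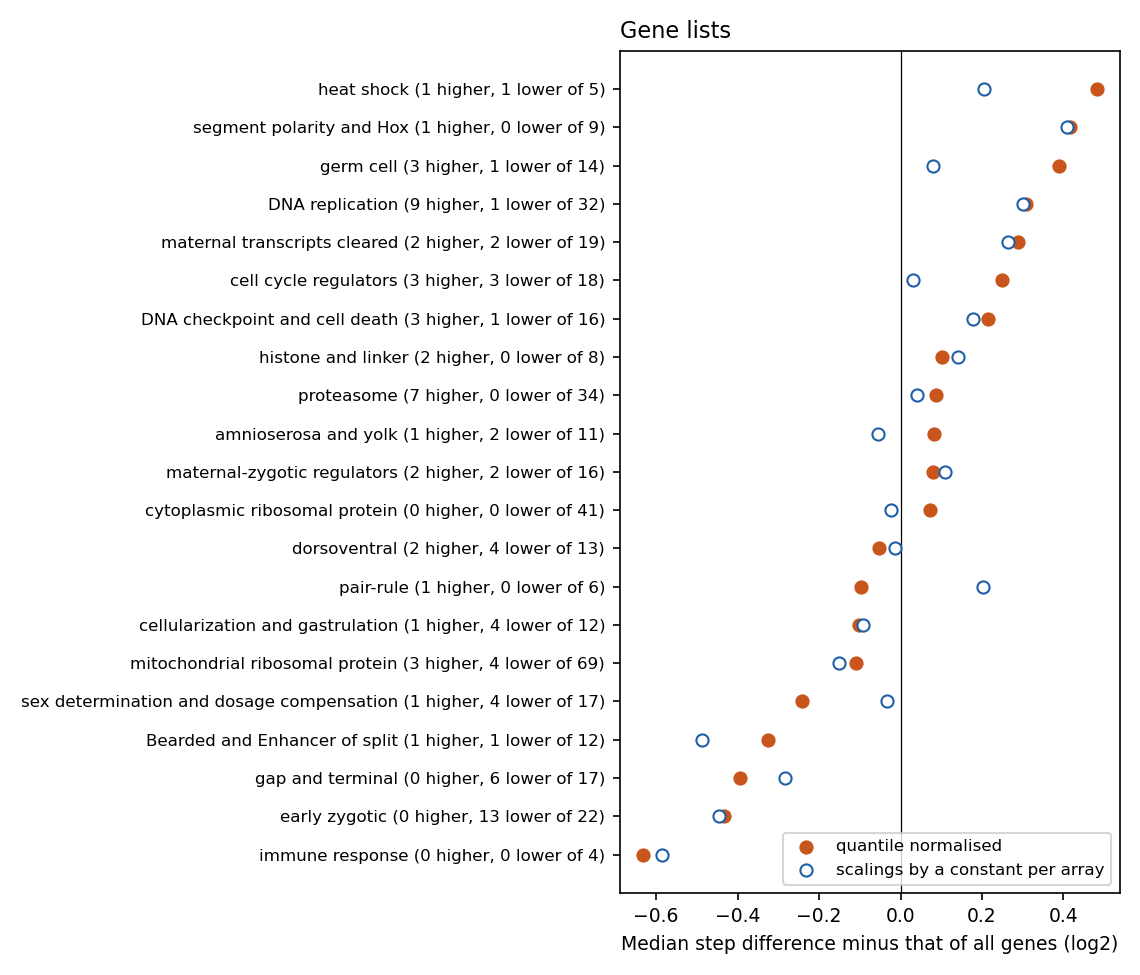
Median step difference of each gene list minus that of all tested genes (log2), after quantile normalisation (filled) and with scaling by a constant per array (open); labels give the members called higher and lower and the number measured. Tissue marker lists are not drawn. The immune response list, with 4 genes measured and none called, lies lowest at −0.63 and −0.59, the early zygotic list lies at −0.43 and −0.45, and the DNA replication list lies at 0.31 and 0.30.

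Cellularization genes build the membranes between the nuclei. Of 12 measured in the list for cellularization and gastrulation, 4 were lower (33.3%, against 6.36% of all genes) and 1, mthl1, was higher (8.33%, against 4.7%). Nullo, which stabilises the new furrows, had 2222, 2494 and 2189.7 in haploid early cycle 15, 3297, 3851 and 3303 in haploid cycle 14, 3069.8, 3218 and 3423 in diploid early cycle 14 and 2281, 2635 and 2125 in diploid cycle 13. It fell in haploids and rose in diploids, so that haploid cycle 14 overlapped diploid early cycle 14 and haploid early cycle 15 overlapped diploid cycle 13. This gave nullo a step difference of −1.06 ± 0.18 (limma adjusted p = 0.00023). The lipid droplet transport gene halo (−0.74 ± 0.12) and the gastrulation signal fog (−0.88 ± 0.14) were also lower.

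By contrast slam, which directs the growth of the lateral membrane, rose by 1.15 ± 0.10 in haploids and 1.13 ± 0.10 in diploids. Its step difference was 0.02 (95% interval −0.26 to 0.30, adjusted p = 0.97). The genome activator zld, a pioneer transcription factor, had 0.10 (95% interval −0.27 to 0.47), and was not called either.

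Of 32 DNA replication genes measured, 9 were higher (28.1%, against 4.7% of all genes) and 1 was lower. Under the 5 scalings 8 to 11 were higher, and 4 were lower with median centring. The list median was 0.31 relative to all genes. RPA1, the large subunit of the single-strand DNA binding complex, had 60.5, 72.8 and 39.6 in haploid early cycle 15, 105, 99.5 and 139 in haploid cycle 14, 228, 209 and 160.0 in diploid early cycle 14 and 1343, 1071 and 1364 in diploid cycle 13. The groups did not overlap, and both haploid groups were below both diploid groups. It fell in both, by 1.02 in haploids and 2.67 in diploids, a step difference of 1.65 ± 0.26 (limma adjusted p = 0.00012).

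The helicase subunits of the MCM complex were Mcm3 (1.15 ± 0.24), Mcm5 (0.55 ± 0.13) and Mcm6 (0.80 ± 0.14), and the last rose by 0.44 in haploids and fell by 0.36 in diploids. Mcm6 had 1696, 1273 and 1696 in haploid early cycle 15, 1122, 1048 and 1246 in haploid cycle 14, 1775, 1867 and 2005 in diploid early cycle 14 and 2692, 2315 and 2273 in diploid cycle 13. Haploid cycle 14 was the lowest group. The origin recognition subunit Orc1 (0.66 ± 0.21) and DNA ligase DNAlig1 (0.78 ± 0.20) were higher as well, and Psf2, a subunit of the GINS complex, was lower (−0.53 ± 0.15). Orc2, PolA2 and Cdc45, the remaining higher members, had arrays below background. The call of Orc1 was lost under each of the 4 other scalings, with a step difference of 0.0841 when arrays were centred on the median, and that of Mcm5 under all of them but poly-A centring. Psf2 was not called on the deposited scale, with ribosomal centring or with poly-A centring.

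The other cell cycle regulators were divided, with 3 of 18 higher and 3 lower (16.7% each, against 4.7% higher and 6.36% lower of all genes). The S-phase kinase Cdk2 (0.63 ± 0.14) and its partner CycE (0.51 ± 0.14) were among the higher ones. Neither was called on the deposited scale, with median centring (0.11 for Cdk2 and 0.22 for CycE) or with ribosomal centring, where no gene of this list was called higher, and 6 were with poly-A centring. The mitotic cyclin CycB was lower: its values were 5718, 4956 and 5777 in haploid early cycle 15, 8314, 8109 and 8930.3 in haploid cycle 14, 9735, 9759 and 9611 in diploid early cycle 14 and 11376, 11139 and 11449 in diploid cycle 13. The groups did not overlap, and the step difference was −0.40 ± 0.08 (limma adjusted p = 0.0029), which turned sign with poly-A centring.

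In the list for DNA checkpoint and cell death, 3 of 16 were higher (18.75%, against 4.7% of all genes) and 1 lower (6.25%, against 6.36%). The checkpoint kinase lok, the fly Chk2, had 366, 416 and 338 in haploid early cycle 15, 570.4, 657 and 751 in haploid cycle 14, 493, 515 and 415 in diploid early cycle 14 and 2038, 1957 and 1966 in diploid cycle 13. Diploid cycle 13 was far above the rest, and the step difference was 1.25 ± 0.14 (limma adjusted p = 1.8e-06). The break repair gene rad50 was higher too (0.92 ± 0.19). The kinase grp, the fly Chk1 that lengthens the last blastoderm cycles, fell by nearly equal amounts, −0.99 ± 0.08 in haploids and −0.98 ± 0.08 in diploids, and its step difference was −0.02 (95% interval −0.25 to 0.22).

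Maternal transcripts marked for clearance were not uniform. Of 19 measured, BicC and alphaTub67C were higher and gcl and smg lower, 10.5% in each direction, against 4.7% higher and 6.36% lower of all genes. The list median was 0.29 relative to all genes. The gene gcl, needed to form the germ cells, had 644, 809 and 628 in haploid early cycle 15, 1886, 1804 and 2168 in haploid cycle 14, 2342, 2239.9 and 2012 in diploid early cycle 14 and 3825, 3664 and 3664 in diploid cycle 13. It fell in both, and haploid early cycle 15 was the lowest group by a clear margin. Its step difference was −0.74 ± 0.14 (limma adjusted p = 0.001). The RNA-binding protein smg, which triggers the clearance of maternal RNAs, had a step difference of −0.45 ± 0.13, with a sign that turned under poly-A centring. The posterior determinant osk (0.46, 95% interval −0.09 to 1.01) and the anterior determinant bcd (−0.51, 95% interval −1.09 to 0.06) were not called.

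Among 14 germ cell genes, 3 were higher (21.4%, against 4.7% of all genes) and 1 lower (7.14%, against 6.36%). The genes ovo and Tdrd3 (1.09 ± 0.23), the latter with a Tudor domain, were among the higher. Of 5 heat shock genes measured, the small heat shock gene Hsp26 was higher and Hsp27, of the same family, was lower. Each is 20% of this short list, against 4.7% higher and 6.36% lower of all genes. Hsp26 had 299, 279 and 270.1 in haploid early cycle 15, 318, 345 and 316 in haploid cycle 14, 395, 429 and 439 in diploid early cycle 14 and 1673, 1517 and 1809.6 in diploid cycle 13, a step difference of 1.78 ± 0.15 (limma adjusted p = 2.2e-08). Hsp27 had 567, 767 and 585 in haploid early cycle 15, 2094, 2061 and 3040 in haploid cycle 14, 4885, 4321 and 4175 in diploid early cycle 14 and 8069.7, 8742 and 8777 in diploid cycle 13, a step difference of −0.96 ± 0.17 (limma adjusted p = 0.00041). Diploid cycle 13 was the highest group for both, but haploid early cycle 15 and cycle 14 were close for Hsp26 and far apart for Hsp27.

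Sex determination in flies reads the number of X chromosomes, and haploid embryos have 1. Of 17 genes measured for sex determination and dosage compensation, 4 were lower (23.5%, against 6.36% of all genes) and 1 higher (5.88%, against 4.7%). The switch gene Sxl had 3269, 3569.9 and 3577 in haploid early cycle 15, 1446, 1475 and 1659 in haploid cycle 14, 876, 1740.1 and 1225 in diploid early cycle 14 and 237, 365 and 339.5 in diploid cycle 13. Haploid early cycle 15 was the highest group, and haploid cycle 14 overlapped diploid early cycle 14. Its step difference was −0.81 ± 0.23 (limma adjusted p = 0.025), 2 of its 3 probe sets had that sign, and the sign turned under poly-A centring. The dosage compensation gene msl-1 fell in haploids (−0.29) and rose in diploids (0.72), with a step difference of −1.004 ± 0.14 (limma adjusted p = 2.6e-05). The helix-loop-helix gene da, which acts in sex determination and neurogenesis, was higher: it had 321, 326 and 331 in haploid early cycle 15, 259, 264 and 273 in haploid cycle 14, 424, 487 and 489 in diploid early cycle 14 and 1214, 1246 and 1236 in diploid cycle 13. Its groups did not overlap, haploid cycle 14 was lowest, and the step difference was 1.70 ± 0.12 (limma adjusted p = 1.2e-09).

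Of 34 proteasome genes, 7 were higher (20.6%, against 4.7% of all genes) and none lower, with a list median of 0.09 relative to all genes. The 7 were Rpn1, Rpn2, Rpn7, Rpn8, Rpn11, Rpn13 and Rpt5, which encode subunits of the regulatory particle that feeds proteins into the proteasome core. Rpn1 had 207, 196 and 187 in haploid early cycle 15, 158, 180.3 and 151 in haploid cycle 14, 419, 369 and 454 in diploid early cycle 14 and 934, 647 and 865 in diploid cycle 13. Both haploid groups were below both diploid groups, and the step difference was 1.24 ± 0.18 (limma adjusted p = 4.9e-05). Rpn11 (1.21 ± 0.25), Rpn8 (1.07 ± 0.15) and Rpt5 (0.87 ± 0.16) followed. The count of higher calls was 4 on the deposited scale, 2 with median centring, where 1 gene was lower, 5 with ribosomal centring and 8 with poly-A centring. None of the 41 cytoplasmic ribosomal protein genes was called, and the list median was −0.03. Of 69 mitochondrial ribosomal protein genes, 3 were higher (4.35%) and 4 lower (5.8%), against 4.7% and 6.36% of all genes. Above background on all 12 arrays were 63 of these 69 and 27 of the 34 proteasome genes. Of all 4831 genes above background on those arrays, 326 were called higher and 597 lower.

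Some called genes had a group whose arrays were all below background, so that the size of their step difference has no order. CG5199 had 30.5, 27.98 and 28.1 in haploid early cycle 15, below background, 62.7, 57.9 and 99.1 in haploid cycle 14, 96.8, 79.7 and 74.5 in diploid early cycle 14 and 496, 423 and 411 in diploid cycle 13. WRNexo, a relative of the Werner syndrome exonuclease, had 251, 214 and 358 in diploid cycle 13, and both haploid groups were below background. The helicase component Cdc45 (160.3, 111 and 167), retm (132, 146 and 136) and the ceramide kinase gene Cerk (167, 104 and 127) were likewise highest on the 3 diploid cycle 13 arrays, and these 5 genes were called higher.

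On the lower side, the BTB gene lov had 467, 493 and 558 in haploid early cycle 15, 151, 132 and 136 in haploid cycle 14, 176, 133 and 139.7 in diploid early cycle 14 and 21.3, 21.8 and 20.2, below background, in diploid cycle 13. Both steps were rises, and haploid cycle 14 was already above background. The genes phu, CG15628, nub, which encodes a POU factor, and Pka-C3 were also called lower with all diploid cycle 13 arrays below background. For nub the values were 349.9, 349 and 415 in haploid early cycle 15, 58.2, 45.8 and 31.5 in haploid cycle 14, 124, 98.4 and 106 in diploid early cycle 14 and 1.41, 1.66 and 0.872 in diploid cycle 13. With values below background set to it, the signs of nub and Pka-C3 turned and both were called higher. Of the probe sets 2 of 3 for nub and 1 of 2 for CG15628 had the sign given.

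The calls of the named genes did not all hold under every scaling. Most of the other scalings moved the median gene up, so the counts below are no measure of which direction is firmer. Of 50 named genes called higher, 44 were called under all 5 scalings. The others were Orc1, lost under 4, Cdk2, CycE and Mcm5, lost under 3, Rpn8, lost on the deposited scale and with median centring, and Rpt5, lost with median centring. Of 51 called lower, 6 were called under all 5, and 45 lost the call with poly-A centring. Among the 6 were nub and Pka-C3, which turned and were called higher (1.31 and 0.74) with values below background set to it. A call was lost under 4 scalings for Sxl and CG7460, and under 3 for Psf2, CycB, smg, CG33272, kni, hkb, tll, Doc1, Z600, phu, CG12991, CG42598, stw, Atg18b, C3G, CG17996, CG12084 and Fbw5, the one that kept it being median centring. D, SoxN, halo, CG16815 and CG15628 lost it on the deposited scale and with poly-A centring.

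Leaving out 1 of the 12 arrays at a time ended the call of 17 of the 101 named and called genes at least once. CG7460 lost it without haploid early cycle 15 replicate 3 (−1.64), CG12991 without replicate 1 or 3 of that group (−1.40 to −1.30), and CycE without haploid cycle 14 replicate 2, haploid early cycle 15 replicate 3 or diploid cycle 13 replicate 2 (0.37 to 0.45). The number of arrays whose loss ended the call was 4 for Cdc45 (1.49 to 1.60) and Sxl (−0.77 to −0.56), 5 for Psf2 (−0.53 to −0.43), and 6 for smg (−0.44 to −0.40) and CG12084 (−0.68 to −0.58). It was 9 for tll (−0.54 to −0.41), phu (−1.82 to −1.49), Cerk (1.31 to 1.56), CG4679 (0.71 to 0.91) and Fbw5 (−0.51 to −0.43). For Orc1 (0.52 to 0.72), CG33272 (−1.37 to −1.11) and CG17996 (−0.996 to −0.80) it was 10, and for CG8142 (0.61 to 0.73) it was 11. The step differences in brackets are those of the fits without the call, and none changed sign.

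The called genes were spread over the chromosome arms. The share called higher was 4.61% on X, 5.12% on 2L, 5.2% on 2R, 4.68% on 3L, 4.13% on 3R and 5.26% on 4. The share called lower was 5.11% on X, 7.08% on 2L, 5.99% on 2R, 7.04% on 3L, 6.52% on 3R and 3.51% on 4. The median gene span, introns included, was 3121 bases among the higher genes and 2512 among the lower ones, against 2369.5 over all tested genes. Genes under 2000 bases were 25.9% of the higher set and 40.9% of the lower set, against 42.5% of all.

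The late arrays, which the step difference did not use, allowed the same genes to be looked at later in the long interphase. At 40 minutes, late cycle 15 haploid against late cycle 14 diploid, 11.2% of all genes were called higher and 14.2% lower. Of the 472 genes with a higher first step, 188 were higher in haploids at that time (39.8%), 42 lower (8.9%) and 242 not called. Of the 638 with a lower first step, 83 were higher (13%), 302 lower (47.3%) and 253 not called. The median late gap was 0.43 for the higher genes and −0.27 for the lower genes, against 0.02 over all genes. Among named genes, rdx had 768, 726 and 793 in haploid late cycle 15, against 289, 302 and 260.5 in diploid late cycle 14, a late gap of 1.43 ± 0.11. GC1 had 134, 153 and 146 in haploid late cycle 15, against 449.9, 444 and 470.4 in diploid late cycle 14, a late gap of −1.66 ± 0.10. Neither pair of groups overlapped. For Kr, the late gap was 0.10 ± 0.07, and it was not called. Some named genes with a lower first step were called higher in haploids at that time. Their late gaps were 1.09 ± 0.14 for Pka-C3, 0.86 ± 0.11 for CG43085 and 0.71 ± 0.10 for Dtg.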

How the data were processed

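RNA of staged embryo pools was hybridised to 1-colour Affymetrix arrays. The values are probe-set intensities that the authors deposited, made with MAS5 per the submitters' processing notes. For the MAS5 version and its target, nothing is given in the sources used here. Of 18952 probe sets, the 14560 with an intensity of at least 12, the 40th percentile, on at least 3 of the 18 arrays were tested. Intensities were quantile-normalised over the 18 arrays with a floor of 0.1 and taken to log2. The step difference, each step and the gaps between ploidies were contrasts of 1 model with a mean per group, fitted with limma 3.58.1 (R 4.3.3), with empirical Bayes moderation and a variance trend, and p-values were adjusted by Benjamini-Hochberg over all tested probe sets. The fit was tested on simulated data.

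Gene symbols came from the platform annotation, updated through Entrez IDs to RefSeq Release 6. Of the tested probe sets 13647 had 1 symbol, and only these were named, by the brightest tested probe set of each gene. Of 82 called genes with several probe sets, 46 had the same sign in all of them. Replicates were separate embryo pools. The 12 genes named in each direction had the largest step differences among called genes above background on all 12 arrays, with array steps (9 haploid, 9 diploid) that did not overlap. The 3 largest were named in each pattern of steps with at least 10 genes, the 5 brightest in each direction with a group below background, and members of 25 gene lists. Of 570 list genes 410 were tested. The lists and the comparison were chosen with earlier results of these data known. Alternatives changed the scaling, the filter, the floor, the variance model, the replicate block and 1 array at a time. Promoter sequences were not analysed here, and the arrays give no sequence counts, so their number limits the precision.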

Additional observations from a re-analysis of the deposited data

Results flagged for a closer look

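The haploid and diploid steps were both called and ran in opposite directions for 93 genes. Of these, 66 genes rose in haploids and fell in diploids, and 27 fell in haploids and rose in diploids. Among the genes named, 11 of the first kind had limma step differences of 2.72 for Pino, 2.66 for l(3)73Ah, 2.40 for pcs, 2.39 for dmpd, 2.25 for CG11593, 2.21 for Khc-73, 2.14 for pbl, 2.08 for Slbp, 1.90 for mthl1, 1.70 for da and 0.80 for Mcm6. The 6 of the second kind had −1.57 for stw, −1.13 for Atg18b, −1.07 for C3G, −1.06 for nullo, −1.004 for msl-1 and −0.70 for scw. Each difference was tested as the interaction itself.

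Among the control probe sets, which no comparison used, the older 3′ probe set for fly GAPDH had a step difference of 2.49. Its intensity averaged 83.8 ± 23.6 in haploid early cycle 15, 86.9 ± 18.6 in haploid cycle 14, 152 ± 8.20 in diploid early cycle 14 and 965 ± 411 in diploid cycle 13 (SD, n = 3). The older 5′ and middle probe sets had step differences of 1.29 and 1.93. The newer probe sets for the same name were all negative, at −0.89 and −0.78 for the 3′ end, −0.84 for the 5′ end and −0.63 for the middle. What lay behind this disagreement was not tested.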

How the results depend on the processing

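Lower calls depended on the scaling and the test: from 730 probe sets they changed to 103 on the deposited scale, 166 with ribosomal centring, 10 with poly-A centring, 433 without a variance trend, 119 with a 2-fold change as well and 422 with the zero at the median of all probe sets, an alternative chosen after seeing the data. All calls changed from 1304 to 750 on the deposited scale and 505 with a 2-fold change as well, and higher calls from 574 to 1249 with poly-A centring. Leaving out 1 array at a time gave 1026 to 1392 calls, 474 to 611 higher and 523 to 809 lower. The replicate numbers did not pair the arrays: same-numbered deviations correlated between −0.023 and 0.017, and 2 of 12 arrays resembled their own number best. With the replicate block there were 1350 calls, 580 higher and 770 lower. Poly-A centring turned the sign of CycB (0.14), smg (0.17), kni (0.11), hkb (0.13), tll (0.24), Z600 (0.11), Sxl (0.19) and Fbw5 (0.0813), none called there. With values below background set to it, nub (1.31) and Pka-C3 (0.74) turned and were called higher. The sign was not fixed for genes with no call, none of which was called where it turned: poly-A centring gave 0.38 for grp, 0.43 for hb and 0.72 for trbl, which was 0.27 on the deposited scale and 0.25 with ribosomal centring; median centring gave −0.12 for slam, −0.048 for zld and −0.30 for osk, which was −0.00288 on the deposited scale and −0.0209 with ribosomal centring; and grp was 0.0712 with the zero at the median of all probe sets. Leaving out 1 array at a time gave −0.0957 to 0.0943 for grp, −0.25 to 0.0623 for hb, −0.0674 to 0.13 for slam and −0.0191 to 0.30 for zld. Causes of these shifts were not tested beyond what each alternative changes by construction. Signal over background limits the rest: 4831 of 10035 genes were above background on all 12 arrays. The promoter motif comparison was not run.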
